A study of Homo sapiens with 6 samples.

Results

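Small nucleolar and Cajal RNA genes were taken as the genes whose symbol starts with SNORD, SNORA or SCARNA. They were read from array probe sets that the platform annotation assigns to 1 gene only, and the brightest probe set was kept where a gene had several. The 196 such probe sets gave 192 genes, 115 SNORD, 61 SNORA and 16 SCARNA, of 18404 genes measured in all. The rule reads gene symbols and mean levels over all arrays. The arrays were Affymetrix HuGene 1.0 ST arrays hybridised with total RNA of H226, an established human lung squamous carcinoma line that carries a doxycycline-inducible shRNA named shp63.

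There were 3 groups of 2 arrays each. Nutlin-3 cells had the shRNA off and received 10 µM Nutlin-3, an inhibitor of the binding of MDM2 to p53, for 12 hours. In shp63 ON cells the shRNA was switched on with doxycycline at 1 µg/mL over 48 hours. Control cells had the shRNA off and no treatment. All were grown in RPMI medium with fetal calf serum. No other shRNA was run, and the other groups had no doxycycline, so effects of the shRNA, of doxycycline and of the longer treatment cannot be told apart. The gene targeted by the shRNA was not analysed here. Nothing in the labels says that the 2 arrays of a group came from separate cultures, so the p-values measure the spread between these arrays, which may be technical.

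The deposited log2 values ran between 2.94 and 14.88, with array medians between 6.57 and 6.70. Replicate arrays correlated at r between 0.9971 and 0.998, and arrays of different groups at r between 0.9751 and 0.9886. Of 8 squamous markers KRT5 had a mean log2 value of 12.18, KRT14 of 10.31 and SOX2, the lowest of the list, of 5.75. Of 6 mesothelial markers MSLN was at 9.9 and BNC1 at 9.94, and the lowest was PRG4 at 5.22. The 9 leukocyte markers ran between 4.32 (PTPRC) and 9.63 (CD68), with MS4A1 at 4.99 and CD3E at 5.09. The 8 fibroblast markers ran between 3.99 (DCN and LUM) and 8.75 (FAP). The 10th percentile over all genes was 4.91, above PTPRC, DCN and LUM. Of the squamous markers 1 was higher and 4 lower in shp63 ON cells than in control cells. Among genes of like mean level (defined below) 17.5% were higher and 20.8% lower. The list's mean was 8.87 to 8.93 in shp63 ON cells and 9.78 to 9.85 in Nutlin-3 cells, against 9.32 to 9.35 in control cells. Of the 6 mesothelial markers 2 were higher and 1 lower in shp63 ON cells, beside 20.8% higher and 13.3% lower among genes of like level. Of the leukocyte markers 4 were higher and 0 lower in that comparison, beside 20.8% higher and 10.1% lower among genes of like level. The mean over the list was 6.45 to 6.5 on the shp63 ON arrays, against 6.15 to 6.23 on the control arrays. Of the fibroblast markers 3 were higher and 1 lower, beside 19.7% higher and 10.7% lower among genes of like level. The list means were 6.3 to 6.31 in shp63 ON cells and 6.24 to 6.25 in control cells. Their part in the differences between groups was not tested.

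Small nucleolar RNAs guide the chemical modification and the cutting of other RNAs. SNORD genes encode C/D box RNAs, most of which direct methylation of the ribose in ribosomal RNA; SNORA genes encode H/ACA box RNAs, which direct pseudouridine formation; SCARNA genes encode related guides that act on spliceosomal RNAs in Cajal bodies. In human cells most of them have no promoter of their own. They are cut out of the introns of a host gene, often a gene for a ribosomal protein, a translation factor or a spliced noncoding RNA such as GAS5, and are then bound by a set of core proteins.

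Because a host's promoter serves every small RNA in its introns, the annotated starts of 12 host genes are shown. These 12 were picked by hand and stand for no wider set. Members of SNHG5, ZFAS1 and SNHG32 are not described one by one below, and some hosts described below are not shown. RefSeq's table of gene starts (GRCh38.p14) held 88 of 106 host genes, and each line gives 40 bases before and 20 bases from the start, on the gene's strand. Capitals mark the first 4 transcribed bases. The hosts and their positions were GAS5 (chr1:173869026-173869085, minus strand), SNHG1 (chr11:62855866-62855925, minus strand), SNHG5 (chr6:85678714-85678773, minus strand), ZFAS1 (chr20:49278602-49278661, plus strand), SNHG32 (chr6:31834876-31834935, plus strand), RPL27A (chr11:8682752-8682811, plus strand), RPL13A (chr19:49487568-49487627, plus strand), RPSA (chr3:39406680-39406739, plus strand), HSPA8 (chr11:123062117-123062176, minus strand), NCL (chr2:231464465-231464524, minus strand), TBRG4 (chr7:45111678-45111737, minus strand) and ODC1 (chr2:10448308-10448367, minus strand).
GAS5: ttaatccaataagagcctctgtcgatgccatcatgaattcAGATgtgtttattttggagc
SNHG1: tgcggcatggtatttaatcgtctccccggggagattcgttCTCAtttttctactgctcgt
SNHG5: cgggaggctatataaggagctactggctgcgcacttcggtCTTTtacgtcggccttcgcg
ZFAS1: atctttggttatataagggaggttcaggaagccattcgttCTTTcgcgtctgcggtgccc
SNHG32: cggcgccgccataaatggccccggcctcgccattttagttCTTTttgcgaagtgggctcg
RPL27A: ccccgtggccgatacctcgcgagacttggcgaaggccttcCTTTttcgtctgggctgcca
RPL13A: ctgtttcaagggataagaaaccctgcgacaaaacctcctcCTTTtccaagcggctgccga
RPSA: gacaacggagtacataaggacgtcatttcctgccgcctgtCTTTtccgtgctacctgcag
HSPA8: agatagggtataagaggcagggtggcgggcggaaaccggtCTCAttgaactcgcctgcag
NCL: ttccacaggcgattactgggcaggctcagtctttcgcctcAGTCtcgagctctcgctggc
TBRG4: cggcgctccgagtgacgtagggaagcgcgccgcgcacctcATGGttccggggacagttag
ODC1: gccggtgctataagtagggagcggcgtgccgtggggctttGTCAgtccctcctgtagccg

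Genes for ribosomal proteins and translation factors often start with a C followed by a run of pyrimidines. The annotated starts of SNHG5, ZFAS1, SNHG32, RPL27A, RPL13A and RPSA, marked by the capitals, begin in that way. A C followed by 3 C or T (the words CCCC or CCCT, the words CCTC or CCTT, the words CTCC or CTCT, and the words CTTC or CTTT, read on the gene's strand at the annotated first base only) was found in 29 of 88 host genes (33.0%), against 1489 of 27305 (5.45%) of all gene starts in the table. Among hosts of members that were lower in shp63 ON cells than in control cells 14 of 32 (43.8%) held it, and among the other hosts 15 of 56 (26.8%). Outside the imprinted clusters, 42 members sat in hosts with the motif, of which 2 were higher and 21 lower in shp63 ON cells (median log2 fold change -0.20). In hosts without it there were 78 members, of which 2 were higher and 26 lower (median -0.13). Of all genes 19.7% were higher and 16.5% lower in that comparison. Brightness differed as well, with a median log2 value of 7.54 for members in hosts with the motif and 6.72 for those without. Shares among genes of like level were not taken here, so a part of brightness in these counts was not tested. GAS5, SNHG1, HSPA8, NCL, TBRG4 and ODC1 lack these letters at the annotated base, which says nothing of starts a few bases away. These shares are descriptions with no test.

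Set against control cells, shp63 ON cells had 64 of the 192 members lower and 4 higher, and most of the lower ones were SNORD genes. A gene was called when limma's moderated test, fitted on all 18404 genes and 6 arrays with 1 mean per group, gave a Benjamini-Hochberg adjusted p under 0.05. Of 115 SNORD genes 46 (40%) fell in shp63 ON cells and 1 rose, while of all genes 16.5% fell and 19.7% rose. The median SNORD log2 fold change was -0.18, against 0.04 over all genes and 0.01 over genes of like mean level (taken in bands 0.5 log2 wide in the members' proportions), of which 10.8% fell. Of 61 SNORA genes 17 (27.9%) fell and 3 rose, with a median of -0.10, beside 13.5% lower and a median of 0.05 among genes of like level. Of 16 SCARNA genes 1 fell and 0 rose, with a median of -0.03, beside 12.9% lower among genes of like level. All 64 lower and all 4 higher calls came from genes whose shp63 ON arrays did not overlap the control arrays. Such a gap is nearly needed for a call, so this adds little to it. Called or not, 99 of 192 members had shp63 ON arrays below both control arrays and 19 above, against 30.4% and 41.3% of all genes.

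The median deviation of the SNORD genes from their own means over 6 arrays was -0.16 and -0.15 log2 on the shp63 ON arrays and 0.11 and 0.14 on the Nutlin-3 arrays, against 0.03 and 0.06 on the control arrays. The SNORA genes stood at -0.14 and -0.08 in shp63 ON cells and 0.08 and 0.16 in Nutlin-3 cells, against -0.04 and 0.02 in control cells. The SCARNA genes were at -0.07 and -0.06 in shp63 ON cells, 0.08 and 0.09 in Nutlin-3 cells and -0.06 and 0.01 in control cells, so that their shp63 ON and control arrays nearly met. All genes together lay within -0.02 and 0.02 on every array. For the SNORD genes the shp63 ON arrays were below both control arrays and the Nutlin-3 arrays above both.

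**Figure D1:**
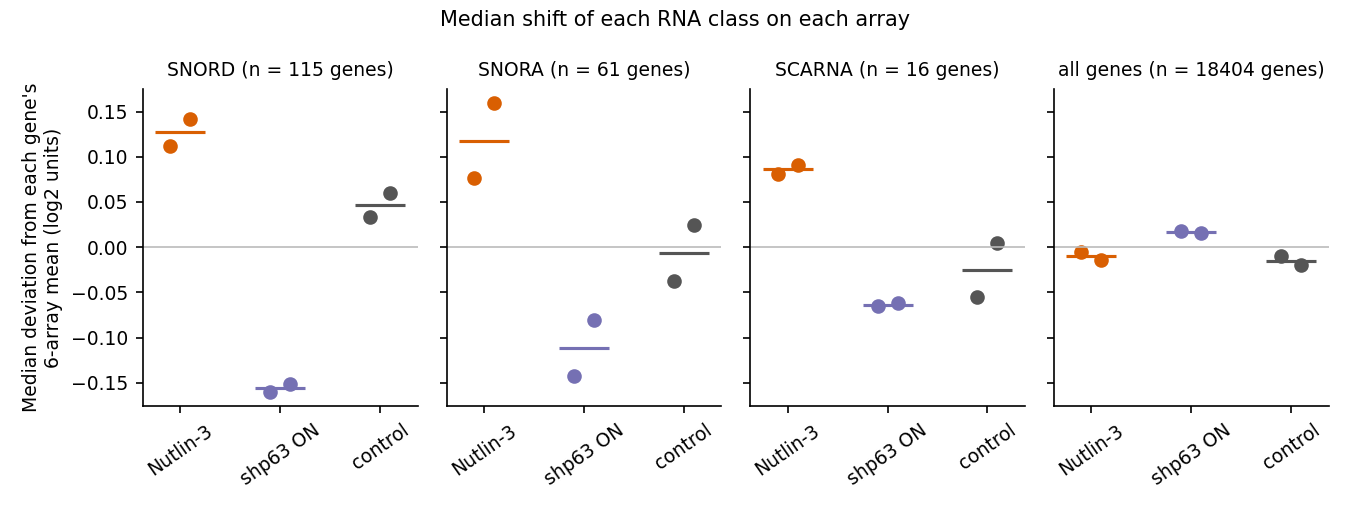
Median shift of each RNA class on each array: points are the 2 arrays of a group, the short line is their mean, and the vertical axis is the median, over the genes of a class, of the deviation from each gene's own mean over 6 arrays (log2 units). The SNORD points lie at -0.16 and -0.15 in shp63 ON cells, below those of control cells (0.03 and 0.06), while all genes stay near 0.

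The counts depended on single arrays and on the estimate of the spread. The SNORA calls numbered 11 without the second control array or without the first shp63 ON array, against 20 with all arrays, and the SCARNA count was 0 without the first control array and 2 without the second shp63 ON array. With a plain analysis of variance per gene, without moderation, 26 SNORD genes and 8 SNORA genes were called. Of the 64 members lower in shp63 ON cells, 30 were called lower again under each of the alternatives other than the filter on dim genes, 25 of them SNORD genes and 5 SNORA genes.

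Other small RNA classes on the array were counted in the same way. Of 173 microRNA genes 32 (18.5%) rose and 4 (2.31%) fell in shp63 ON cells (median 0.08), beside 15.1% higher and 5.99% lower among genes of like level. The microRNA count of 36 calls was 18 without either control array and 23 without the first shp63 ON array. When each array was centred on its median, 24 microRNA genes rose and 7 fell. Of 23 genes of small nuclear RNAs (symbols starting with RNU) 3 rose and 3 fell (13.0% each, median -0.16), beside 19.7% higher and 11.5% lower among genes of like level, and 3 were called without the second control array. The differences between these classes and the SNORD genes were not tested.

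Members were also grouped by the kind of gene that holds them, and differences between those groups were not tested. A host was found for 190 members as the RefSeq gene whose span holds them. Of 27 members in spliced noncoding hosts 21 fell and 0 rose in shp63 ON cells, with a median log2 fold change of -0.58, beside 19.9% lower among genes of like level. Of 33 members in ribosomal protein genes 19 fell and 1 rose (median -0.43), beside 17.5% lower among genes of like level. In translation factor genes 3 of 7 (42.9%) fell and 0 rose (median -0.22), beside 6.08% lower among genes of like level. Of 77 members in other genes 13 (16.9%) fell and 3 rose (median -0.04), beside 11.8% lower. Of 46 SNORD copies in the imprinted clusters 8 (17.4%) fell and 0 rose (median -0.06), beside 3.91% lower. Of 19 SNORD genes in noncoding hosts, 7 of them in GAS5 and so not independent, 17 fell (median -0.74), beside 18.8% lower among genes of like level. The other two, SNORD1B of SNHG16 and SNORD7 of SNHG30, had log2 fold changes of 0.05 and 0.13 that did not pass, and both were picked out after their values were seen. So was SNORA14A, in POR, the lowest open point for Nutlin-3, whose arrays spread widely: 7.54 and 5.71 in shp63 ON cells and 6.11 and 6.08 in Nutlin-3 cells, against 8.88 and 7.06 in control cells. It passed in neither comparison (adjusted p = 0.153 for shp63 ON and 0.095 for Nutlin-3).

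**Figure D2:**
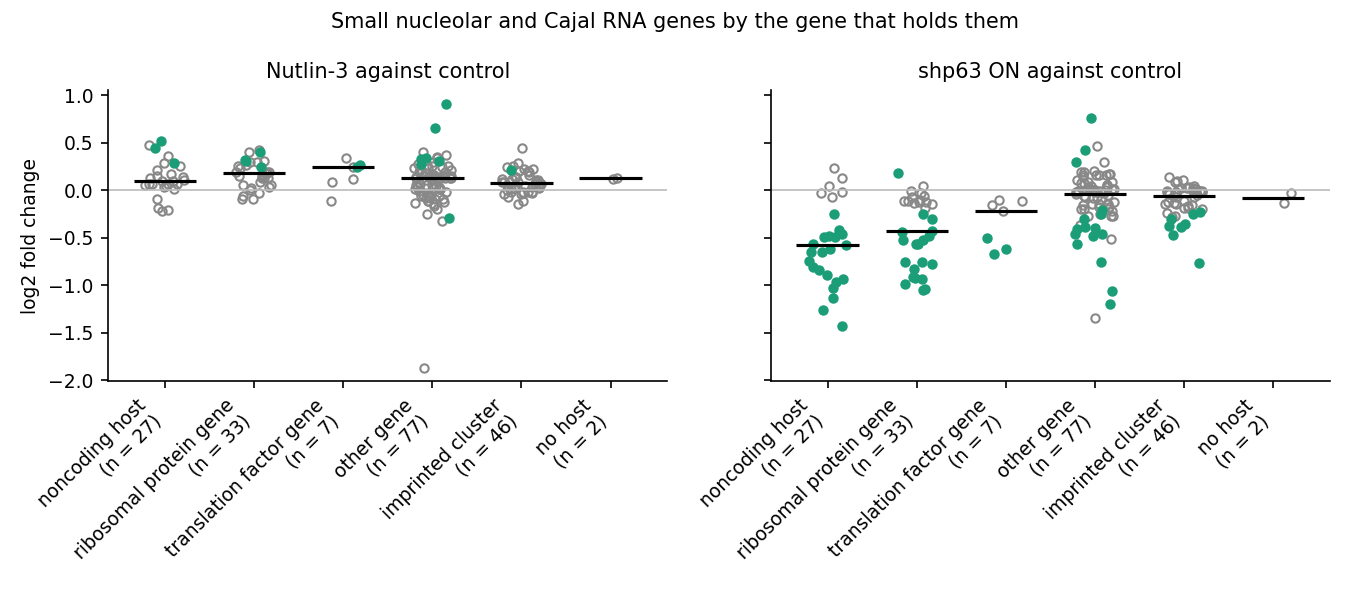
Log2 fold changes of the 192 small nucleolar and Cajal RNA genes by the kind of gene that holds them, for Nutlin-3 against control (left) and shp63 ON against control (right); filled points passed the test, open points did not, and black lines are medians. In shp63 ON cells the medians are -0.58 in noncoding hosts and -0.43 in ribosomal protein genes, and -0.04 in other genes.

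GAS5, a spliced noncoding gene named for its rise in growth-arrested cells, holds 7 of the members, and 7 of 7 fell in shp63 ON cells. SNORD44 had log2 values of 8.47 and 8.49 in shp63 ON cells and 9.78 and 9.46 in Nutlin-3 cells, against 9.52 and 9.70 in control cells. Its log2 fold change in shp63 ON cells was -1.13 (SE 0.11, adjusted p = 0.000401, n = 2 arrays a group). Both shp63 ON arrays lay below the other 4 arrays, which overlapped one another. SNORD78 had 8.08 and 8.19 in shp63 ON cells and 9.45 and 9.20 in Nutlin-3 cells, against 9.09 and 9.05 in control cells (log2 fold change in shp63 ON cells -0.94, adjusted p = 0.000367). SNORD81 had 7.87 and 8.17 in shp63 ON cells and 9.14 and 9.16 in Nutlin-3 cells, against 8.83 and 8.89 in control cells (-0.84, adjusted p = 0.000889). For both, all 3 groups stood apart, with Nutlin-3 highest, although Nutlin-3 against control did not pass (adjusted p = 0.0967 for SNORD78 and 0.0856 for SNORD81). SNORD75, SNORD74, SNORD77 and SNORD79 fell by 0.81, 0.58, 0.57 and 0.49 on the log2 scale in shp63 ON cells. GAS5 itself had no probe set of its own, but 3 further probe sets name GAS5 beside SNORD47, SNORD76 or SNORD80, and 3 of 3 fell by 1.33, 0.86 and 0.73 on the log2 scale. These values come from a fit over all 32321 probe sets, in which 10.5% were called lower and 9.5% higher. Those shares include probe sets with no gene and were not matched for level.

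SNHG1, another noncoding host, holds SNORD28, the member with the lowest fold change in shp63 ON against control cells. SNORD28 measured 8.60 and 8.59 in shp63 ON cells and 9.91 and 9.71 in Nutlin-3 cells, against 10.00 and 10.07 in control cells. The log2 fold change in shp63 ON cells was -1.43 (SE 0.08, adjusted p = 2.77e-05), and the Nutlin-3 arrays lay between the other groups without a call (-0.22, adjusted p = 0.0986). SNORD30, also of SNHG1 and chosen after its values were seen, measured 8.77 and 8.19 in shp63 ON cells and 9.45 and 9.15 in Nutlin-3 cells, against 9.51 and 9.50 in control cells (-1.03, adjusted p = 0.0045). The 6 probe sets that name SNHG1 beside another SNORD gene all fell, with log2 fold changes between -1.91 and -0.71. SNORD49A, in SNHG29, measured 5.85 and 5.84 in shp63 ON cells and 7.31 and 7.18 in Nutlin-3 cells, against 6.98 and 7.23 in control cells (-1.26, SE 0.09, adjusted p = 0.000103). SNHG29 itself fell by 0.29 on the log2 scale (adjusted p = 0.0126), a call lost without the second control array or the first shp63 ON array and under cyclic loess, with values between -0.50 and -0.20 over the alternatives. The difference between the 2 was not tested.

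SNORA71A, SNORA71C and SNORA71D lie in SNHG17, a noncoding gene with a probe set of its own. SNHG17 fell by 0.72 on the log2 scale in shp63 ON cells, with 9.45 and 9.41 on the shp63 ON arrays and 10.15 and 10.00 on the Nutlin-3 arrays, against 10.12 and 10.17 on the control arrays. SNORA71C fell by 0.25 (adjusted p = 0.0357), a call lost without the second control array or without either shp63 ON array. SNORA71A (-0.02, adjusted p = 0.803) and SNORA71D (-0.07, adjusted p = 0.457) did not pass.

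**Figure D3:**
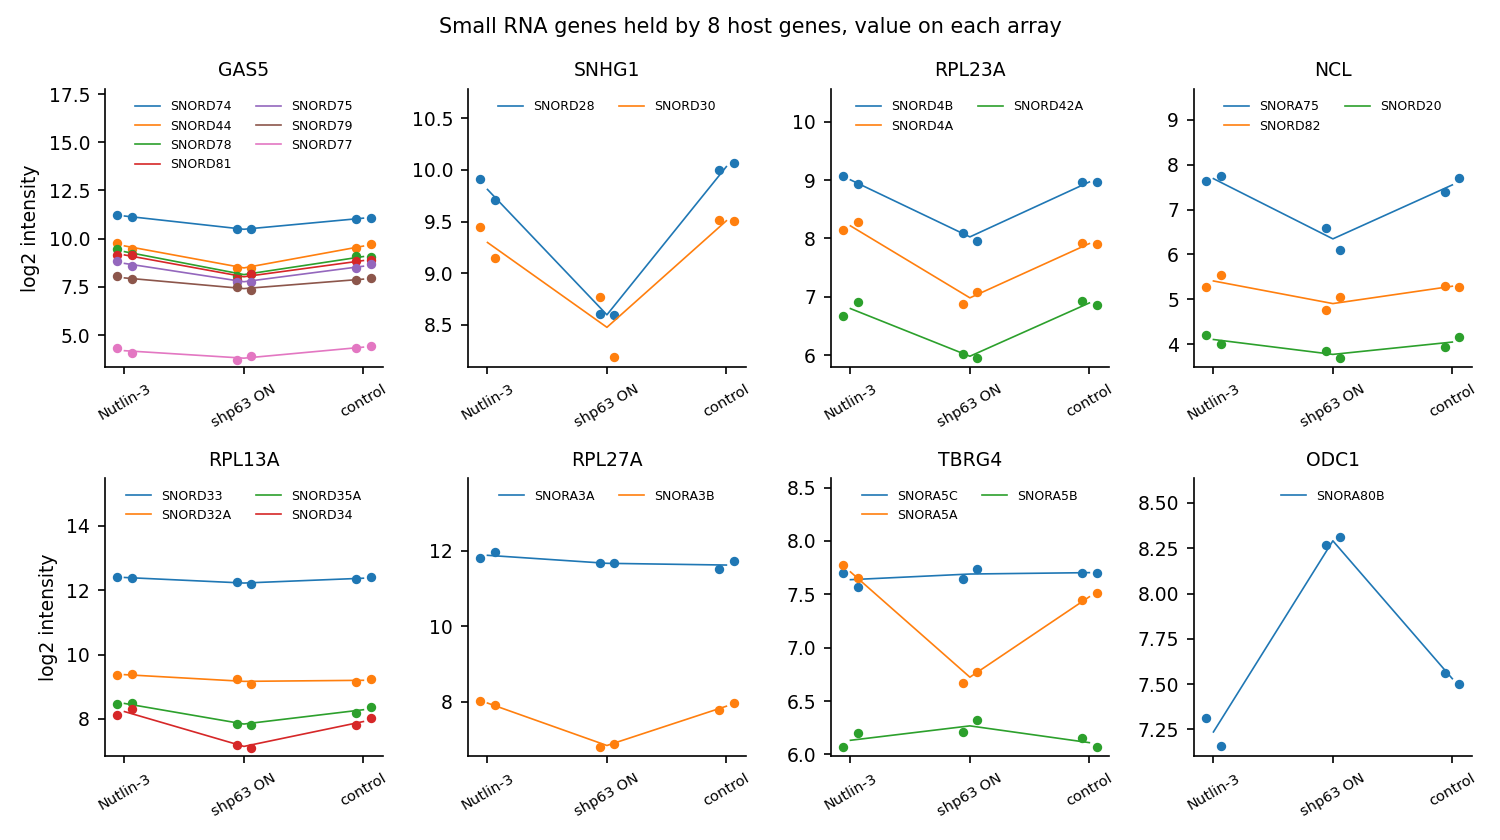
Log2 intensity on each array of the members held by GAS5, SNHG1, RPL23A, NCL, RPL13A, RPL27A, TBRG4 and ODC1; points are single arrays and lines join group means, 1 colour for each member. The GAS5, SNHG1 and RPL23A members dip together in shp63 ON cells, while members of RPL27A and TBRG4 part: SNORA3B (-1.04) from SNORA3A (0.05), and SNORA5A (-0.75) from SNORA5B and SNORA5C (0.16 and -0.01).

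In ribosomal protein genes, members of 1 host sometimes fell by like amounts and sometimes not. The 3 members of RPL23A fell by 0.93 (SNORD4A), 0.94 (SNORD4B) and 0.91 (SNORD42A) on the log2 scale in shp63 ON cells. SNORD4B measured 8.09 and 7.96 in shp63 ON cells and 9.07 and 8.94 in Nutlin-3 cells, against 8.97 and 8.97 in control cells (SE 0.08, adjusted p = 0.000155). Its shp63 ON arrays lay below the other 4 arrays, which nearly coincided. RPL23A, whose protein belongs to the large ribosomal subunit, fell by 0.19 (adjusted p = 0.0421), a call lost without any 1 control or shp63 ON array, with quantile normalization or cyclic loess and with every probe set fitted (log2 fold changes between -0.25 and -0.09 over the alternatives). SNORD58A in RPL17 measured 5.05 and 5.08 in shp63 ON cells and 6.64 and 6.19 in Nutlin-3 cells, against 6.16 and 6.08 in control cells (-1.06, SE 0.13, adjusted p = 0.00114). RPL17 fell by 0.38 (adjusted p = 0.00656), a call lost without the second control array.

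RPL27A, of the large subunit, holds a pair of members with unlike fold changes. SNORA3B measured 6.81 and 6.87 in shp63 ON cells and 8.01 and 7.91 in Nutlin-3 cells, against 7.78 and 7.97 in control cells (-1.04, SE 0.08, adjusted p = 0.00013). SNORA3A, in the same gene, measured 11.66 and 11.66 in shp63 ON cells and 11.79 and 11.96 in Nutlin-3 cells, against 11.51 and 11.73 in control cells (0.05, adjusted p = 0.729). So the shp63 ON arrays of SNORA3B lay below both other groups, and those of SNORA3A lay among the control arrays. The host RPL27A fell by 0.43 (adjusted p = 0.00194).

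RPL13A, of the large subunit, holds 4 members. Of these, SNORD34 fell by 0.77 and SNORD35A by 0.45 on the log2 scale, while SNORD33 (-0.15, adjusted p = 0.0931) and SNORD32A (-0.03, adjusted p = 0.761) did not pass. SNORD34 measured 7.19 and 7.10 in shp63 ON cells and 8.13 and 8.32 in Nutlin-3 cells, against 7.80 and 8.03 in control cells. RPL3 holds SNORD43, SNORD83A and SNORD83B, with log2 fold changes of -0.18, -0.10 and -0.06, of which 0 of 3 passed.

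Among the SNORA genes of ribosomal protein hosts, SNORA62 in RPSA measured 6.33 and 6.83 in shp63 ON cells and 7.68 and 7.99 in Nutlin-3 cells, against 7.18 and 7.65 in control cells (-0.83, SE 0.20, adjusted p = 0.0168). Its call was lost without the second control array and without the first shp63 ON array. SNORA52, in RPLP2, rose by 0.18 (8.46 and 8.48 in shp63 ON cells and 8.34 and 8.35 in Nutlin-3 cells, against 8.29 and 8.28 in control cells, adjusted p = 0.0454). That call ended when any 1 of the 6 arrays was left out.

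Other host genes gave single steep falls. NCL encodes nucleolin, an abundant nucleolar protein. Its member SNORA75 measured 6.59 and 6.10 in shp63 ON cells and 7.63 and 7.74 in Nutlin-3 cells, against 7.40 and 7.70 in control cells (-1.20, SE 0.16, adjusted p = 0.0015). SNORD82, also in NCL, fell by 0.39 (adjusted p = 0.0365), a call lost without either control array or the first shp63 ON array, and SNORD20 (-0.28, adjusted p = 0.0765) did not pass. NCL itself fell by 0.70.

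HSPA8, a constitutive chaperone gene, holds copies of SNORD14, a C/D box RNA that in yeast is needed for processing of the small subunit's RNA. SNORD14E measured 6.67 and 6.28 in shp63 ON cells and 8.06 and 7.83 in Nutlin-3 cells, against 7.51 and 7.58 in control cells (-1.07, SE 0.13, adjusted p = 0.00104). Both shp63 ON arrays were lowest and both Nutlin-3 arrays highest. HSPA8 did not pass (-0.17, adjusted p = 0.0593). SNORD14C, chosen after its values were seen, fell by 0.56 on the log2 scale.

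TBRG4 holds SNORA5A, SNORA5B and SNORA5C. SNORA5A measured 6.67 and 6.78 in shp63 ON cells and 7.77 and 7.65 in Nutlin-3 cells, against 7.45 and 7.51 in control cells (-0.75, SE 0.07, adjusted p = 0.000376). SNORA5B (0.16, adjusted p = 0.149) and SNORA5C (-0.01, adjusted p = 0.907) did not pass, nor did TBRG4 (-0.09, adjusted p = 0.356). SNORA67, in the translation initiation factor gene EIF4A1, measured 8.57 and 8.60 in shp63 ON cells and 9.52 and 9.54 in Nutlin-3 cells, against 9.21 and 9.32 in control cells (-0.67, adjusted p = 0.00037).

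RABGGTB encodes a subunit of the enzyme that attaches lipid groups to Rab proteins, and 3 of its 3 members fell in shp63 ON cells. SNORD45B measured 5.73 and 6.06 in shp63 ON cells and 6.93 and 7.13 in Nutlin-3 cells, against 6.18 and 6.58 in control cells. It fell in shp63 ON cells (-0.48, adjusted p = 0.0441) and rose in Nutlin-3 cells (0.65, adjusted p = 0.0259). SNORD45A and SNORD45C fell by 0.47 and 0.21 in shp63 ON cells. The falls of SNORD45A and SNORD45B were lost without the second control array or the first shp63 ON array, and that of SNORD45C without any 1 control or shp63 ON array.

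SNORA80B was the member that rose most in shp63 ON cells. It measured 8.27 and 8.31 in shp63 ON cells and 7.31 and 7.16 in Nutlin-3 cells, against 7.56 and 7.50 in control cells. Its log2 fold change was 0.76 in shp63 ON cells (SE 0.07, adjusted p = 0.000359) and -0.29 in Nutlin-3 cells (adjusted p = 0.0321), the one member with that pair of calls. The rise in shp63 ON cells was called under every alternative, while the Nutlin-3 call was lost under 9, leaving out either control array among them. Its host ODC1, the gene of ornithine decarboxylase, which starts polyamine synthesis, went the other way: 9.88 and 10.04 in shp63 ON cells and 10.85 and 10.89 in Nutlin-3 cells, against 10.73 and 10.64 in control cells (log2 fold change -0.73 in shp63 ON cells, adjusted p = 0.00052).

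SNORD96B (0.42, adjusted p = 0.0356) and SNORA70G (0.29, adjusted p = 0.0102) were, beside SNORA52, the other members that rose. SNORD96B measured 5.26 and 5.55 in shp63 ON cells and 4.90 and 5.20 in Nutlin-3 cells, against 4.94 and 5.03 in control cells, and its call was lost without either control array or the second shp63 ON array and under each other scaling. SNORA70G measured 5.79 and 5.84 in shp63 ON cells and 5.44 and 5.44 in Nutlin-3 cells, against 5.55 and 5.49 in control cells, and its call was lost without the second control array or the second shp63 ON array and under cyclic loess.

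The imprinted clusters are arrays of near-identical SNORD copies inside long noncoding transcripts, known from brain. The SNORD115 and SNORD116 copies are those known from Prader-Willi syndrome. Of 20 SNORD116 copies 8 (40%) fell and 0 rose in shp63 ON cells (median -0.24), beside 7.97% lower among genes of like level. Of 20 SNORD115 copies 0 were called (median -0.02), and of 6 SNORD113 and SNORD114 copies 0 were called (median -0.02). The SNORD115 probe sets had a median log2 value of 3.57, below the 10th percentile of all genes (4.91). SNORD116-23 measured 6.42 and 6.51 in shp63 ON cells and 7.11 and 7.18 in Nutlin-3 cells, against 6.93 and 6.96 in control cells (-0.48, SE 0.07, adjusted p = 0.00176). SNORD116-1 measured 7.57 and 7.64 in shp63 ON cells and 8.20 and 8.22 in Nutlin-3 cells, against 8.01 and 7.98 in control cells (-0.39, adjusted p = 0.00327). Both kept their fall under every alternative. Copies of one family share sequence, so their probe sets may share RNA and are not independent.

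Many members had dim probe sets. Of the 192 members 91 had a mean log2 value under 6, and 15 of these (16.5%) fell in shp63 ON cells and 2 rose, beside 1.7% lower among genes of like level. Of the 101 at 6 or above 49 fell (48.5%) and 2 rose, with a median of -0.25, beside 21.0% lower among genes of like level. A total of 62 members lay under the 10th percentile of all genes. A median or count over the bright members describes that subset only.

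The 5 brightest members had small fold changes. SNORD13, which has a promoter of its own and guides acetylation of the small subunit's RNA, measured 12.49 and 12.50 in shp63 ON cells and 12.66 and 12.62 in Nutlin-3 cells, against 12.53 and 12.52 in control cells (log2 fold change in shp63 ON cells -0.03, adjusted p = 0.766). SNORD116-15 measured 12.33 and 12.33 in shp63 ON cells and 12.68 and 12.70 in Nutlin-3 cells, against 12.58 and 12.54 in control cells. It fell by 0.23 on the log2 scale (adjusted p = 0.0219), a call lost without any 1 control or shp63 ON array. SNORA71D, SNORD33 and SNORD13P3 were the others among the 5 brightest, and their values in shp63 ON cells (-0.07, -0.15 and -0.22) did not pass. SNORD13P3 is 1 of 3 members whose symbol marks a pseudogene of SNORD13. Whether its probe set also reads SNORD13 was not tested.

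A further 63 probe sets name a member together with another gene and were counted apart. In the fit over all 32321 probe sets 34 of them fell and 0 rose in shp63 ON cells (median -0.42), beside 10.5% lower and 9.5% higher among all probe sets. That background includes 11775 probe sets with no gene and was not matched for level. In the fit over genes 16.5% of all genes were lower and 19.7% higher. Among them SNHG1 with SNORD27 fell by 1.74 on the log2 scale (5.81 and 5.80 in shp63 ON cells and 7.59 and 7.41 in Nutlin-3 cells, against 7.59 and 7.50 in control cells), and SNHG15 with SNORA9 fell by 1.44. The probe set shared by the U3 genes (SNORD3A to SNORD3D), which encode the RNA at the core of the small subunit's processing complex, measured 8.17 and 8.01 in shp63 ON cells and 8.49 and 8.53 in Nutlin-3 cells, against 8.45 and 8.69 in control cells (-0.48, adjusted p = 0.0296). These probe sets were named after their values were seen.

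Host genes measured on their own could be set beside 99 members, in 77 hosts. Of the 77 hosts 44 (57.1%) fell and 2 rose in shp63 ON cells, with a median of -0.23, beside 22.9% lower among genes of like level. Called hosts numbered 30 without the first control array and 26 without the second, against 46 with all arrays. Of 29 members that fell and had a measured host, 22 had a host that fell, 7 had one that was not called and 0 had one that rose. Of all 99 members, called or not, 56 had a host that fell. Of those 56 members 22 themselves fell, beside 29 of all 99. Whether members fell more often where the host fell was not tested. Across the 99 members the fold changes of member and host had Pearson's r of 0.06 and Spearman's rho of 0.14, given as a description, since members of 1 host share its value and all points share the same 4 arrays. GAS5, SNHG1, SNHG5 and RPL13A had no probe set of their own, so their members are not among those 99. A probe set within an intron cannot tell the finished small RNA from unspliced host RNA, and in a bulk culture fewer expressing cells and less RNA per cell cannot be told apart.

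**Figure D4:**
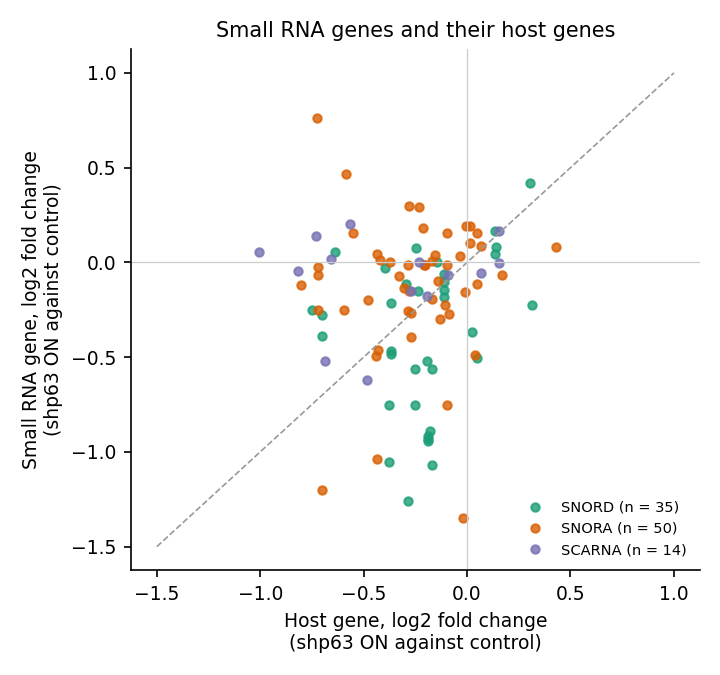
Log2 fold change of 99 small RNA genes (vertical) against that of the gene holding them (horizontal), shp63 ON against control, coloured by class; the dashed line marks equal change. Points scatter on both sides of it (r = 0.06), with SNORA80B at 0.76 above a host at -0.73.

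Transcripts of the proteins that bind, build and use these RNAs were also measured. Over 7 lists, which were drawn up with results of these data known, 58 of 73 measured genes fell (79.5%) and 0 rose, with a median log2 fold change of -0.50, beside 24.9% lower among genes of like level. Of the C/D core proteins FBL, the methyltransferase, and NOP58 were measured, and 2 of 2 fell, beside 24.6% lower among genes of like level. FBL measured 9.76 and 9.78 in shp63 ON cells and 10.54 and 10.48 in Nutlin-3 cells, against 10.57 and 10.52 in control cells (-0.77, SE 0.06). NOP58 fell by 0.86. Of 4 H/ACA core proteins 2 fell, beside 26.9% lower among genes of like level. DKC1, the pseudouridine synthase, fell by 1.13 and NHP2 by 0.59. DKC1 measured 7.94 and 7.94 in shp63 ON cells and 9.19 and 8.98 in Nutlin-3 cells, against 9.14 and 9.01 in control cells. For these 4 genes both shp63 ON arrays lay below all other arrays.

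Of 10 assembly factors 8 fell and 0 rose, beside 24.5% lower among genes of like level. NAF1, which carries H/ACA particles in assembly, fell by 0.93 and the ATPase RUVBL1 by 0.89. Of 9 cap, transport and trimming factors 5 fell, beside 27.1% lower among genes of like level. The cap-binding protein NCBP2 fell by 0.63 and TGS1, which adds methyl groups to the small RNA cap, by 0.51. TGS1 rose by 0.56 in Nutlin-3 cells (8.06 and 8.05 in Nutlin-3 cells and 7.05 and 6.93 in shp63 ON cells, against 7.46 and 7.53 in control cells). Of 11 Cajal body and nucleolar scaffold proteins 10 fell, with NOLC1 lowest at -1.20 and GEMIN5 at -1.04. NOLC1 measured 9.63 and 9.66 in shp63 ON cells and 10.59 and 10.67 in Nutlin-3 cells, against 10.83 and 10.85 in control cells.

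Of 22 proteins of the U3 processome, the complex that cuts the small subunit's RNA free, 20 fell, with WDR3 at -1.03 and WDR75 at -0.82. Among genes of like level 26.8% were lower. Of 15 RNA polymerase I genes 11 fell, with POLR1E at -1.17 and POLR1B at -0.63, beside 24.1% lower among genes of like level. Of 25 noncoding RNA genes in a further list, most of them known as hosts, 6 had a probe set of their own. Of these 4 fell and 0 rose, beside 25.3% lower among genes of like level. The list also includes TERC and RMRP, which hold no member here, and TERC was among those that fell. All changes stated for these transcripts in shp63 ON cells passed limma's test.

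**Figure D5:**
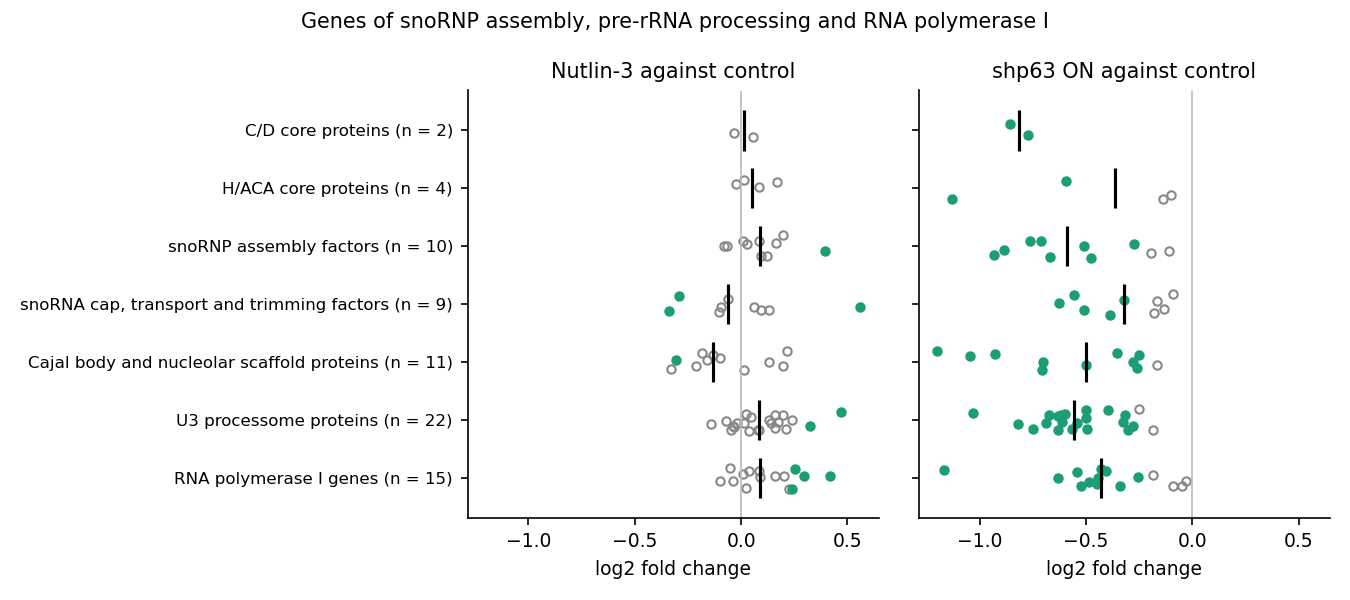
Log2 fold changes of 73 genes in 7 lists of small RNA assembly, ribosomal RNA processing and RNA polymerase I, for Nutlin-3 against control (left) and shp63 ON against control (right); filled points passed the test and black bars are list medians. In shp63 ON cells 58 of the 73 passed and lie below 0, while in Nutlin-3 cells 8 passed above and 3 below 0.

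In Nutlin-3 cells 17 members were called, each with Nutlin-3 arrays that did not overlap the control arrays, which adds little to the call itself. Called or not, 91 of 192 members had both Nutlin-3 arrays above both control arrays and 14 below, against 30.2% and 30.2% of all genes. Of 115 SNORD genes 10 rose and 0 fell, of 61 SNORA genes 5 rose and 1 fell, and of 16 SCARNA genes 1 rose and 0 fell. With 16 of 192 higher (8.33%), the share was near the 9.64% of all genes and the 7.2% of genes of like level that rose. So the count of rises is no result about the members. The 1 fall was 0.521% of the members, against 8.89% of all genes and 6.9% of genes of like level. That difference was not tested. The medians were 0.11, 0.13 and 0.14 on the log2 scale, against -0.00 over all genes, and 149 of 192 members had a fold change above 0. The counts rested on single arrays: SNORD calls numbered 1 without the first control array, 4 without the second and 6 without the second Nutlin-3 array, and SNORA calls 0, 1 and 3. The call of SCARNA7, the SCARNA gene that rose, was lost without either control array or the second Nutlin-3 array. The analysis of variance without moderation called 0 members, and of the 16 rises 0 were called under every alternative.

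SNORD1A, in SNHG16, gave the Nutlin-3 call that was lost under 1 alternative only, the analysis of variance without moderation. It measured 5.86 and 5.83 in Nutlin-3 cells and 4.60 and 4.56 in shp63 ON cells, against 5.22 and 5.43 in control cells, a log2 fold change of 0.52 in Nutlin-3 cells (SE 0.08, adjusted p = 0.00487). SNORD15B, in RPS3, measured 8.81 and 8.77 in Nutlin-3 cells and 7.76 and 7.89 in shp63 ON cells, against 8.38 and 8.39 in control cells (0.40 in Nutlin-3 cells, adjusted p = 0.00681, lost without the first control array). SNORD96A, in RACK1, a gene for a ribosome-bound scaffold, rose by 0.34 (adjusted p = 0.0142), lost without the first control array or the second Nutlin-3 array. SCARNA7, in KPNA4, rose by 0.33 (adjusted p = 0.0215), lost without either control array or the second Nutlin-3 array. SNORD1A, SNORD15B and SNORD96A each had Nutlin-3 arrays above, and shp63 ON arrays below, both control arrays.

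In all, 11 members were called higher in Nutlin-3 cells and lower in shp63 ON cells: SNORD1A, SNORD4A, SNORD15B, SNORD45B, SNORD51, SNORD54, SNORD96A, SNORD104, SNORD116-1, SNORA13 and SNORA67. Another 53 were called lower in shp63 ON cells only and 119 in neither comparison. Of all genes 9.64% were called higher in Nutlin-3 cells and 16.5% lower in shp63 ON cells. The share of all genes with both calls was not taken, so the 11 are a list and no result about the members. Both comparisons share the 2 control arrays, so the pair of calls is not independent. Except for SNORD1A, each of these Nutlin-3 calls was lost without the first control array.

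SNORA15, in CCT6A, had the highest fold change of any member in Nutlin-3 cells (0.91, SE 0.25, adjusted p = 0.0441), with 5.41 and 5.15 in Nutlin-3 cells and 4.47 and 5.20 in shp63 ON cells, against 4.09 and 4.64 in control cells. Its second, dimmer probe set had a difference of -0.12 (4.72 and 4.60 in Nutlin-3 cells and 4.49 and 4.54 in shp63 ON cells, against 4.81 and 4.76 in control cells), and the call was lost when the 2 were averaged or any control or Nutlin-3 array was left out. The 2 probe sets of SCARNA9L had like differences in shp63 ON cells (-0.62 and -0.69). Those of SCARNA9 were -0.52 and -0.28, and SCARNA9 did not pass (adjusted p = 0.0514). SCARNA9L's own fall (adjusted p = 0.0105) was lost without the first control array. SCARNA17's 2 probe sets were near 0 in shp63 ON cells (-0.02 and 0.07).

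Of the hosts in Nutlin-3 cells 3 of 77 (3.9%) rose and 5 (6.49%) fell, beside 12.7% higher and 8.97% lower among genes of like level. When each array was centred on its median, 7 rose and 3 fell, and without the second control array 3 rose and 0 fell. Of the 73 genes of the 7 lists 8 (11.0%) rose and 3 (4.11%) fell in Nutlin-3 cells (median 0.06), beside 14.5% higher and 10.4% lower among genes of like level, so this count is no result about them. Among those that rose were WDR43 by 0.47 and POLR1A by 0.30. That count of 11 calls was 3 without the first control array, 2 without the second and 5 without either Nutlin-3 array, and the rise of POLR1A was lost without either control array or the first Nutlin-3 array.

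Set directly against Nutlin-3 cells, shp63 ON cells had 63 of 115 SNORD genes lower (54.8%) and 1 higher, 31 of 61 SNORA genes lower (50.8%) and 5 higher, and 5 of 16 SCARNA genes lower and 0 higher. Of all genes 24% were lower and 27.5% higher. All 99 lower and 6 higher calls had arrays that did not overlap, which adds little to the call itself. Called or not, 131 of 192 members had shp63 ON arrays below both Nutlin-3 arrays and 20 above, against 35.7% and 41.1% of all genes. The medians were -0.28, -0.26 and -0.18, against 0.03 over all genes. The steepest falls were those of SNORD14E (-1.47, adjusted p = 0.000132), SNORD49A (-1.40, adjusted p = 3.75e-05) and SNORD58A (-1.35, adjusted p = 0.000196). SNORA80B rose most (1.05, adjusted p = 4.62e-05), with its 2 shp63 ON arrays at 8.27 and 8.31 above its Nutlin-3 arrays at 7.31 and 7.16. The arrays here are those of the comparisons with control, so these counts are no separate evidence.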

How the data were processed

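Log2 values per probe set and array were deposited by the authors. Partek is named in the submitters' processing notes with no version, with summarisation, normalization and annotation build not given in the sources used here. Of 32321 probe sets the platform annotation names 1 gene for 19158, several for 1388 and none for 11775. The brightest probe set of each gene was kept, giving 18404 genes. R 4.3.3 and limma 3.58.1 fitted 1 mean per group on the log2 values of 6 arrays (2 per group, 3 residual degrees of freedom, prior 4.52), with eBayes and Benjamini-Hochberg adjustment over all genes, and every adjusted p is from that fit unless another is named. The number of arrays limits the precision. Levels of different probe sets were set side by side only as array brightness, in ranks and percentiles, since probe sets respond differently and do not give amounts of RNA.

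The members and lists were chosen with earlier results of these data known. Genes named are, per class and comparison with control, the 5 largest rises and falls among called members with arrays that do not overlap. Added to these are the 3 most extreme each way in shp63 ON against Nutlin-3, the 5 brightest members, those called in opposite directions, those with several probe sets, all members of hosts with 3 or more, the hosts of all these and up to 4 called genes of each protein list. SNORD30, SNORD14C, SNORA3A, SNORD1B, SNORD7, SNORA14A and the probe sets naming several genes were added after their values were seen. Not every gene that these rules pick is described, and SNORA30, SNORA35 and SNORA49 are among those left out. A host is the shortest RefSeq gene (GRCh38.p14), other than a small RNA gene, whose span holds the member, with genes measured on the array preferred. The planned condition on strand could not be applied, as the table gives none. Alternatives tried were other scalings, a filter on dim genes, other handling of probe sets, other variance models, the 2 groups alone, the replicate number as a block and each array left out. All members of hosts with 3 or more were to be named, and 1 such host and its members are not reported here.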

Additional observations from a re-analysis of the deposited data

How the results depend on the processing

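There were 17 alternatives, 11 of them with all arrays. Of 4612 values for 274 tests of named genes, 4031 kept direction and side of the threshold, 581 were no longer past it and 0 reversed. The replicate numbers did not pair the arrays: same-numbered deviations correlated at -0.062 (control with Nutlin-3), -0.0162 (control with shp63 ON) and 0.1071 (Nutlin-3 with shp63 ON). With the replicate block 2 SCARNA genes were called in shp63 ON against control, and of the 64 members lower there 63 were called lower again, and the call of RPL23A lower was lost. Centring each array on its median moved the median of all genes to 0.06 for Nutlin-3 over control (-0.00 before), to -0.02 for shp63 ON over control (0.04 before) and to -0.10 for shp63 ON over Nutlin-3 (0.03 before). The causes of the shifts that follow were not tested, apart from the smaller number of genes or arrays that an alternative itself leaves.

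In Nutlin-3 against control, SNORD calls (10) were 23 with median centring, 3 with every probe set fitted, 18 with a variance trend and 0 without moderation. SNORA calls (6) were 10, 0, 11 and 0 under these, and SCARNA calls (1) were 0 with every probe set, 2 with the trend and 0 without moderation. MicroRNA calls (7 higher, 16 lower) were 23 with centring (13 higher, 10 lower, a reversed balance), 13 with every probe set and 4 without moderation (3 higher, 1 lower, reversed). Host calls (3 higher, 5 lower) reversed in balance to 10 with centring (7 higher, 3 lower), 15 with the trend (8 and 7) and 1 without moderation. Calls among the 73 protein genes (11) were 18 with centring, 17 with the dim filter, 3 with every probe set, 18 with the trend and 3 without moderation. The SNORD median (0.11) was 0.08 with quantile normalization, 0.17 with centring, 0.07 with cyclic loess and 0.14 with the dim filter. The SNORA median (0.13) was 0.19 and the SCARNA median (0.14) 0.20 with centring.

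In shp63 ON against control, analysis of variance without moderation called 26 SNORD genes (47 in the moderated fit), 8 SNORA genes (20), 0 SCARNA genes (1), 10 microRNA genes (36) and 2 small nuclear RNA genes (6). SCARNA calls were 2 with quantile normalization, centring, cyclic loess, averaged probe sets or the trend, and 0 with the dim filter, and microRNA calls were 22 with every probe set. The SNORD median (-0.18) was -0.25 with centring and -0.43 with the dim filter, the SNORA median (-0.10) was -0.16 with centring, and the SCARNA median (-0.03) was -0.09 with centring or cyclic loess. In shp63 ON against Nutlin-3, SNORA calls (36) were 21 with the dim filter and 14 without moderation, SCARNA calls (5) were 9 with centring and 1 without moderation, and small nuclear RNA calls (10) were 5 with every probe set and 3 without moderation. MicroRNA calls (56 higher, 15 lower) reversed in balance to 74 with centring (34 higher, 40 lower), and were 39 with the dim filter and 35 without moderation. The SNORD median (-0.28) was -0.24 with quantile normalization, -0.41 with centring and -0.62 with the dim filter. The SNORA median (-0.26) was -0.22 with quantile normalization and -0.39 with centring, and the SCARNA median (-0.18) was -0.30 with centring.

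With each array left out in turn, calls in Nutlin-3 against control ranged from 1 to 11 (SNORD), 0 to 4 (SNORA), 0 to 1 (SCARNA), 8 to 21 (microRNA), 0 to 1 (small nuclear RNA), 3 to 9 (hosts) and 2 to 10 (protein genes), and the medians from 0.07 to 0.14 (SNORD), 0.07 to 0.13 (SNORA) and 0.08 to 0.16 (SCARNA). Where a group was left with 1 array, that array was assumed to vary like the other groups. The balance reversed without the second control array for SNORA genes (0 higher, 1 lower) and hosts (3 higher, 0 lower), and without the first Nutlin-3 array for the protein genes (5 calls, 2 higher and 3 lower). In shp63 ON against control, calls ranged from 36 to 47 (SNORD), 11 to 18 (SNORA), 0 to 2 (SCARNA), 18 to 40 (microRNA), 3 to 7 (small nuclear RNA), 26 to 44 (hosts) and 44 to 58 (protein genes), and the medians from -0.21 to -0.17 (SNORD), -0.11 to -0.03 (SNORA) and -0.06 to -0.01 (SCARNA). In shp63 ON against Nutlin-3 they ranged from 55 to 64 (SNORD), 25 to 35 (SNORA), 4 to 7 (SCARNA), 48 to 63 (microRNA), 6 to 9 (small nuclear RNA), 39 to 44 (hosts) and 55 to 61 (protein genes), and the medians from -0.31 to -0.28, -0.29 to -0.22 and -0.19 to -0.10 for SNORD, SNORA and SCARNA genes. Small nuclear RNA calls there reversed in balance without the second Nutlin-3 array (9 calls, 5 higher and 4 lower). Members under the 10th percentile of level, 62 of 192, limit what these arrays can show.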
